A study of Mus musculus with 6 samples.

Results

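The 10 genes described here encode acute phase plasma proteins, which the liver secretes into the blood during inflammation and tissue injury: the serum amyloid A genes Saa1, Saa2, Saa3 and Saa4, the orosomucoid genes Orm1, Orm2 and Orm3, haptoglobin (Hp), lipocalin 2 (Lcn2) and serum amyloid P component (Apcs). They were chosen by gene symbol, and all 10 were found among the 34745 genes of the count table. The study asked how an overdose of acetaminophen (APAP), an analgesic whose oxidative metabolism injures hepatocytes, changed gene expression in mouse liver. Livers were taken 12 h after 1 intraperitoneal dose of APAP at 300 mg/kg or after saline, and both groups had been fasted for 12 h first. The samples used are labelled wild type, and the study's methods describe male C57BL/6J mice of 8 to 10 weeks. Bulk RNA-seq counts were available for 2 APAP libraries, replicates 1 and 3, while replicate 2 was not analysed here. A further 3 libraries have columns named WT1, WT2 and WT3, names that state no treatment. Their place as controls was inferred by elimination, since APAP appears in the names of the remaining columns. They are called saline WT1 to WT3 below, and their names do not tie them to a numbered saline sample. All comparisons below rest on this inference.

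During the acute phase response, cytokines of the interleukin-6 and interleukin-1 families reach the hepatocyte, where STAT3, C/EBP factors and NF-kB raise transcription of a set of secreted proteins. Serum amyloid A proteins are small apolipoproteins of high-density lipoprotein, orosomucoids are glycoproteins that carry drugs and lipids, haptoglobin captures free haemoglobin, lipocalin 2 binds bacterial iron carriers, and serum amyloid P component is a pentraxin, of the protein family that holds C-reactive protein. In the mouse, Saa1, Saa2 and Apcs are known as strongly inducible in liver, Saa3 is made mainly outside hepatocytes, and Saa4 is known as the constitutive member of its family.

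The libraries held 13378445 to 15976339 counts each, and values are given as CPM, counts divided by a library size that was adjusted with TMM factors, so that libraries are set against each other by the bulk of their genes. 3 counts correspond to 0.176 to 0.269 CPM. The liver label was borne out by its markers: the 10 hepatocyte markers examined summed to 129928 to 169978 CPM in the saline libraries and 74566 to 120245 CPM in the APAP libraries, and albumin took the largest share of counts in every library. Xist, the X-inactivation RNA, measured 0.764 and 1.73 CPM after APAP against 289.6 to 914 CPM after saline, whereas the Y-linked Ddx3y stood at 79.0 and 61.7 CPM against 0 to 0.0668 CPM. The groups therefore differed in sex-linked expression as well as in the treatment assigned to them. The 2 differences cannot be told apart in any comparison below. The saline libraries did not show the expression of male mice, and whether they came from the saline samples was not tested.

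The members fall into 2 gene clusters and 3 single loci, with coordinates of the whole protein-coding genes given on GRCm38 as in the deposited table. The serum amyloid A cluster spans 42.3 kb of chromosome 7 and holds Saa3 (ENSMUSG00000040026, chr7:46711998-46715676, minus strand), Saa4 (ENSMUSG00000040017, chr7:46728017-46732543, minus strand), Saa1 (ENSMUSG00000074115, chr7:46740501-46742980, minus strand) and Saa2 (ENSMUSG00000057465, chr7:46751833-46754314, plus strand). Saa1 and Saa2 point away from each other, with starts 8853 bases apart. The orosomucoid cluster spans 21.3 kb of chromosome 4, plus strand, in the order Orm1 (ENSMUSG00000039196, chr4:63344560-63348163), Orm3 (ENSMUSG00000028359, chr4:63356162-63359511) and Orm2 (ENSMUSG00000061540, chr4:63362449-63365878). Hp (ENSMUSG00000031722) lies at chr8:109575130-109579172, Lcn2 (ENSMUSG00000026822) at chr2:32384633-32388252 and Apcs (ENSMUSG00000026542) at chr1:172893961-172895041, each on the minus strand.

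The 250 bases before the RefSeq transcription start (GRCm38.p6) are shown for 5 members, because the Saa1 and Saa2 pair and the Orm2 and Orm3 pair are alike in upstream sequence. Saa1 and Saa2 had like patterns across the libraries, whereas Orm3 overlapped between the groups and Orm2 did not, and Saa4, in the same cluster as Saa1, had lower values with APAP. The regions are chr7:46742981-46743230 on the minus strand for Saa1, chr7:46751583-46751832 on the plus strand for Saa2, chr7:46732604-46732853 on the minus strand for Saa4, chr4:63362199-63362448 on the plus strand for Orm2 and chr4:63355908-63356157 on the plus strand for Orm3. Each is written 5′ to 3′ along its gene, and capitals mark matches to a C/EBP motif (TTGCNNAA, on either strand) or an NF-kB motif (GG and TTTCC with any 3 bases between them, on either strand).
Saa1: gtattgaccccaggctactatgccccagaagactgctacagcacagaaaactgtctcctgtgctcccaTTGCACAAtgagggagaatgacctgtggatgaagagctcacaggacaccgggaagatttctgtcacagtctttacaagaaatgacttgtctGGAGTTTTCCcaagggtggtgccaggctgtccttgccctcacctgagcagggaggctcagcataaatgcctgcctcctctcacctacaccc
Saa2: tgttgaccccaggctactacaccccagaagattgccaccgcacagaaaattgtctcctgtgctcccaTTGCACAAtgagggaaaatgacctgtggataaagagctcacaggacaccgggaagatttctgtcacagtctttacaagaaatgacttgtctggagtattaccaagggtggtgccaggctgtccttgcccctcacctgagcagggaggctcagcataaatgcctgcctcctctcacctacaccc
Saa4: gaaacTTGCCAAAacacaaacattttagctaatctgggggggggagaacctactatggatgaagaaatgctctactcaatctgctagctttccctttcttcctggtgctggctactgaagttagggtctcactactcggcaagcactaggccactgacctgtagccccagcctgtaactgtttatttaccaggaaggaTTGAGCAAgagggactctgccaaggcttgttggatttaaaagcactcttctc
Orm2: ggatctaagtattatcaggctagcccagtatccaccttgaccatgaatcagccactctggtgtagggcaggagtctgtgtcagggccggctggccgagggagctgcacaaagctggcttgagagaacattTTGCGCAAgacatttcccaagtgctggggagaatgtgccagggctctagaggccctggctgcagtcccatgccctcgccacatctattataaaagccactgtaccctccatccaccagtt
Orm3: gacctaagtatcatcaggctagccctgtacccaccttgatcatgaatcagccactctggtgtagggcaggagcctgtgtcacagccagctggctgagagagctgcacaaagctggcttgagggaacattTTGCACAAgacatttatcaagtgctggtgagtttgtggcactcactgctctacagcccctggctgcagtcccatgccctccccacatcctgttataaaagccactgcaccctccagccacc

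Saa1 and Saa2 shared 95.6% of aligned bases in this window, against 60.6% to 64.4% for the other pairs of Saa genes, and Orm2 and Orm3 shared 89.0%. The C/EBP letters were found in 7 of the 8 members with an entry (all but Apcs), and in 9.56% of all 32851 promoter windows of this length. Counting the last base before the start as -1, the C/EBP match began at -182 in Saa1 and -183 in Saa2, and at -120 in Orm2 and -121 in Orm3. Saa4 held 2 C/EBP matches, beginning at -245 and -52. Among the 8 members, the NF-kB letters, present in 4.63% of all windows, were found in Saa1 alone, from -91. The same stretch of Saa2 differs from these letters. A STAT motif (TTCNNNGAA, on either strand, in 7.02% of windows) was found only in Apcs, from -244. These motifs were chosen after the sequences had been seen, a match is a description of letters and not a site, and Orm1 and Hp had no entry.

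At 12 h after APAP, 4 of the 10 genes rose (Saa1, Saa2, Lcn2 and Apcs), none fell, and 6 did not pass the test. The test was edgeR's quasi-likelihood test over all 13734 genes with enough counts, called at a Benjamini-Hochberg adjusted p under 0.05. All 10 genes passed the count filter, and 3.70% of all tested genes were called higher, 3.53% lower and 7.23% in either direction. The median log2 fold change of the 10 genes was 2.04, against 0.03 for all tested genes. At the study's own threshold, a fold change of at least 1.5 with an unadjusted p under 0.05, 7 genes were higher (Orm1, Orm2 and Orm3 in addition) and 1 lower (Saa4), where 12.3% of tested genes were higher, 11.2% lower and 23.5% either. Both APAP libraries lay above all saline libraries for 6 genes (background 24.0%) and below them for 1 (background 20.1%). Nothing in the labels says that the libraries came from separate animals, so p-values measure the spread between these libraries.

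**Figure D1:**
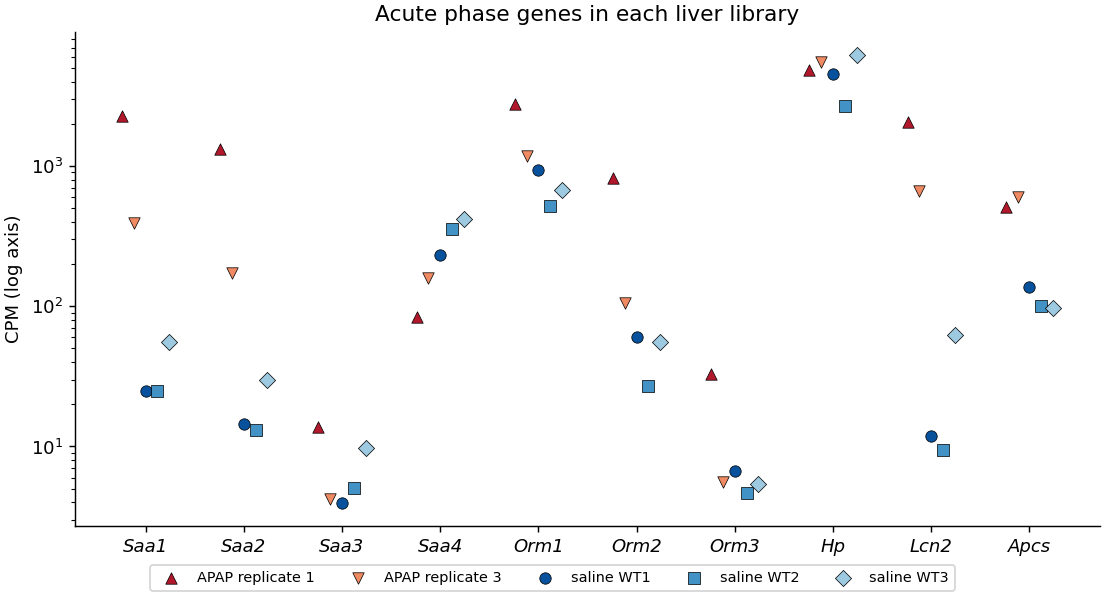
CPM of the 10 genes on a log axis, with 1 point for each of the 2 APAP libraries (triangles) and 3 saline libraries (circle, square, diamond). Saa1, Saa2, Orm1, Orm2, Lcn2 and Apcs have both APAP points above all saline points, Saa4 has both below, and Saa3, Orm3 and Hp overlap.

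Saa1 stood at 2268 CPM in APAP replicate 1 and 391.8 CPM in replicate 3, against 24.9, 24.9 and 56.1 CPM in saline WT1, WT2 and WT3. Both APAP libraries were far above the saline libraries, yet they were also far from each other. The mean was 1330 ± 1327 CPM (SD, n = 2) with APAP and 35.3 ± 18.0 CPM (SD, n = 3) with saline, and the fitted log2 fold change was 5.23 (SE 0.79, adjusted p = 0.0158), a 37.6-fold rise. The lowest raw count of any library was 278, in saline WT1, so counting error was small beside the spread between libraries. Because these are whole-tissue RNA samples, a change in the number of cells of a type and a change in RNA per cell cannot be told apart.

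Saa2, which encodes the other inducible circulating form, followed Saa1 closely. Its level was 1317 CPM in APAP replicate 1, 172.7 CPM in APAP replicate 3, and 14.5, 13.2 and 29.8 CPM in saline WT1, WT2 and WT3. Again WT3 was the highest saline library and APAP replicate 1 the higher treated one, with no overlap between groups. This gave a log2 fold change of 5.28 (SE 0.86, adjusted p = 0.0187), or 38.8-fold. The calls of both genes were lost when saline WT1 (adjusted p = 0.0605 for Saa1 and 0.0698 for Saa2) or saline WT2 (0.0869 and 0.0937) was left out. Without APAP replicate 1 the log2 fold changes fell to 3.48 for Saa1 and 3.18 for Saa2, and without replicate 3 they were 5.99 and 6.09.

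The balance between Saa1 and Saa2 moved little while their sum changed. Saa1 made up 63.3% of the counts of the pair in APAP replicate 1 (95% Clopper-Pearson interval 62.9% to 63.6%), 69.4% in APAP replicate 3 (68.4% to 70.3%), and 63.2% (58.5% to 67.7%), 65.4% (61.4% to 69.3%) and 65.3% (62.6% to 67.9%) in saline WT1, WT2 and WT3. APAP replicate 3 stood highest, and APAP replicate 1 was within the interval of WT1. These intervals cover counting error only. The representative transcripts of Saa1 and Saa2 are 94.4% identical, and 13.2% of the 50-base words of Saa1 also occur in Saa2, so reads from shared stretches could have been dropped or assigned to either gene, and the split is uncertain to that extent.

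Saa4 went the other way. It stood at 83.9 and 160.1 CPM in APAP replicates 1 and 3, against 233, 354 and 419 CPM in saline WT1, WT2 and WT3. Both APAP libraries were below all saline libraries, with the lower value in the library where Saa1 and Saa2 were highest. Its log2 fold change was -1.46 (SE 0.39), which did not pass (adjusted p = 0.0742) but did with edgeR's likelihood ratio and exact tests, with DESeq2 and without the filter on low counts. Saa3, the family member expressed by macrophages and adipocytes, was scarce at 13.7 and 4.20 CPM with APAP and 3.94, 5.05 and 9.82 CPM with saline. Its groups overlapped (log2 fold change 0.51, SE 0.58, adjusted p = 0.639), and without APAP replicate 1 its sign turned (-0.58). Beside it, the 12 macrophage and monocyte markers summed to 289.4 and 493 CPM in APAP replicates 1 and 3 and 251 to 368 CPM with saline. Of these markers, Chil3 had under 10 counts in each saline library. It passed the count filter through its APAP counts and had to differ, so its call is given as a description. With Chil3 included, 2 markers were called higher (Chil3 and Ccr2), where 3.70% of all tested genes were called higher. That count was 1 without APAP replicate 1, APAP replicate 3, saline WT2 or saline WT3 and 3 without saline WT1, and it was 4 with the likelihood ratio test, the exact test, DESeq2 or no filter and 5 with library size only or the study's threshold. The 5 adipocyte markers summed to 0.680 to 5.05 CPM with APAP and 0 to 4.54 CPM with saline, with Lep at 0 in every library. Their part in the Saa3 values was not tested.

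Per length of transcript, the make-up of the family turned over. Saa4 held 55.7% to 70.2% of the summed CPM per kb of the 4 Saa genes in the saline libraries, 7.55% in APAP replicate 3 and 0.672% in APAP replicate 1. Saa1 and Saa2 held 36.5% or less each in every library except for Saa1 with APAP, at 62.5% and 63.5%. Saa3 held at most 4.93%, in saline WT3. These shares depend on the transcript lengths used, 2094 bases for Saa4 and 555 to 609 for the others. By counts alone, Saa4 held 81.4% to 89.2% with saline, 22.0% in APAP replicate 3 and 2.28% in APAP replicate 1.

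**Figure D2:**
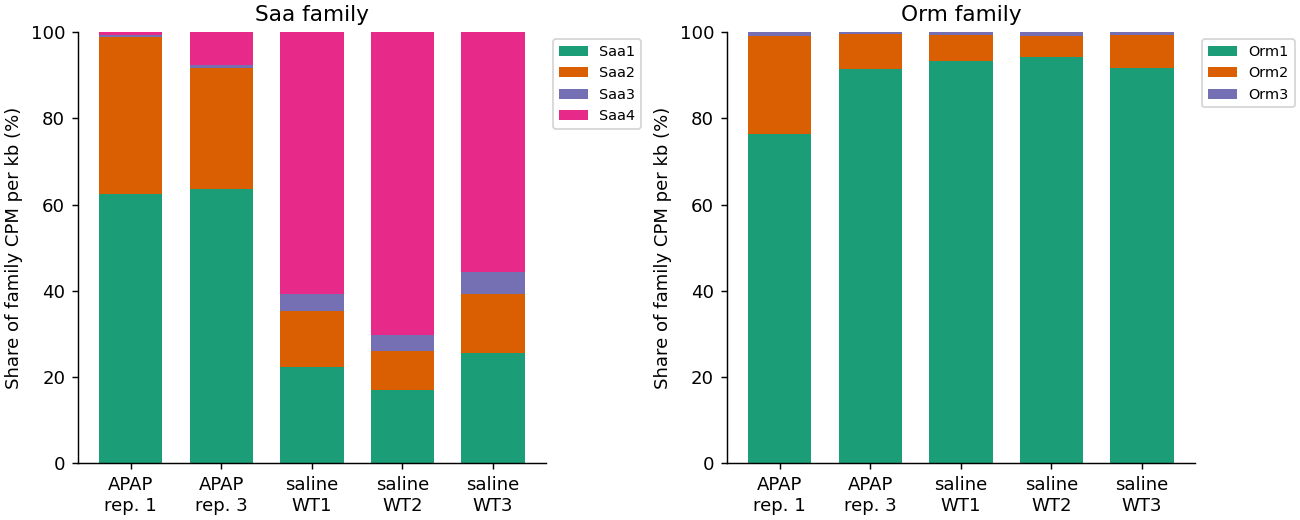
Share of each gene in the summed CPM per kb of its family, for the Saa family (left) and the Orm family (right), with 1 stacked bar per library. Saa4 is the largest part of the Saa bars with saline and Saa1 with APAP, whereas Orm1 is the largest part of all 5 Orm bars, at 76.5% in APAP replicate 1 and 91.5% to 94.3% elsewhere.

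The orosomucoids were higher in APAP replicate 1 than in any saline library, but none of the 3 passed the test. Orm1, the most abundant, stood at 2776 and 1186 CPM in APAP replicates 1 and 3 and at 937, 523 and 678 CPM in saline WT1, WT2 and WT3. The groups did not overlap, though APAP replicate 3 lay close above WT1. On the log2 scale the change was 1.47 (SE 0.44, adjusted p = 0.0926), and it was 0.74 without APAP replicate 1. Orm1 was called higher by the likelihood ratio and exact tests, by DESeq2 and with scaling by library size only.

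Orm2 showed the widest gap between the APAP libraries of any of the 10 genes. It stood at 820.7 CPM in APAP replicate 1 and 104.6 CPM in replicate 3, against 60.0, 27.0 and 55.3 CPM in saline WT1, WT2 and WT3. Replicate 3 was 2.21 times the saline mean, and replicate 1 was 17.3 times that mean. The log2 fold change of 3.29 (SE 0.79) just missed the threshold (adjusted p = 0.0545). It passed at an adjusted p under 0.05 in 7 of 13 alternative fits, among them leaving out APAP replicate 3, and fell to 1.15 without APAP replicate 1.

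Orm3, scarce in all libraries, was raised above the saline range in 1 of the 2 APAP libraries. It measured 32.7 CPM in APAP replicate 1 but 5.56 CPM in replicate 3, inside the saline range of 4.65 to 6.72 CPM. A log2 fold change of 1.78 (SE 0.64, adjusted p = 0.148) came to -0.0021 without APAP replicate 1, and of the fits at an adjusted p under 0.05 it was called in the one without APAP replicate 3, at 2.54. The split of counts between Orm1 and Orm2 also differed between the APAP libraries. Orm1 made up 77.2% of the pair's counts in APAP replicate 1 (95% interval 76.8% to 77.5%), 91.9% in replicate 3 (91.5% to 92.3%) and 92.5% to 95.1% in the saline libraries. The transcripts of Orm1 and Orm2 are 91.0% identical and share 20.4% of the 50-base words of Orm1, so this split is uncertain as well.

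Haptoglobin did not separate the groups. Hp stood at 4812 and 5529 CPM in APAP replicates 1 and 3 and at 4560, 2667 and 6225 CPM in saline WT1, WT2 and WT3. The APAP values fell inside the saline range. Its fitted log2 fold change was 0.21 (SE 0.43, adjusted p = 0.814), and it turned to -0.06 when saline WT2, the lowest library, was left out. Hp had the highest mean level per kb in both groups, but in APAP replicate 1 its 3577 CPM per kb was below Saa1 (3724) and Orm1 (3582). A difference between groups was not detectable at this number of libraries.

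Lcn2 had the largest fold change of the 10 genes. It stood at 2045 and 661 CPM in APAP replicates 1 and 3 and at 11.8, 9.50 and 62.1 CPM in saline WT1, WT2 and WT3. The groups did not overlap, and WT3 was 6.54 times WT2, beyond the 95th percentile of this ratio among tested genes (4.81). The log2 fold change was 5.60 (SE 0.97, adjusted p = 0.0231), a 48.6-fold rise. The call was lost without APAP replicate 1 (4.57, adjusted p = 0.0987), saline WT1 (0.0683) or saline WT2 (0.0878), and without WT3 the log2 fold change was 6.99.

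Neutrophils store lipocalin 2 in their granules, and neutrophil markers were examined beside Lcn2. The 15 markers summed to 141 and 88.2 CPM in APAP replicates 1 and 3 and to 5.85 to 9.95 CPM in the saline libraries, and the lowest APAP sum was above the highest saline sum. Of the 12 that passed the count filter, 10 had under 10 counts in at least 1 library, and those that passed through their APAP counts had to differ, so the 8 called are given as a description. With at least 10 counts required in every library, 2 remained (S100a9 and Csf3r) and both were called. S100a9, a calcium-binding protein abundant in these cells, stood at 41.5 and 30.3 CPM against 1.58 ± 0.438 CPM (SD, n = 3) with saline (log2 fold change 4.50, edgeR adjusted p = 0.00181). Csf3r, the receptor for granulocyte colony-stimulating factor, rose as well (2.59). S100a8, the partner of S100a9, and Retnlg had under 10 counts in at least 1 saline library, so their fold changes are not read. Over all tested genes 3.70% were called higher. Fewer markers were called when either APAP library was left out. Without saline WT2 the number of markers called was 2, where calls over all tested genes fell from 993 to 165. Ly6g, a defining surface marker, was at 0.235 and 0.494 CPM with APAP and 0 in all saline libraries. The part of neutrophils in the level of Lcn2 was not tested.

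Apcs differed from the other called genes in that its libraries lay close together within each group. It stood at 509.6 and 602.8 CPM in APAP replicates 1 and 3 and at 138.2, 100.3 and 97.6 CPM in saline WT1, WT2 and WT3. Replicate 3, not replicate 1, was the higher treated library. The mean was 556 ± 65.9 CPM (SD, n = 2) against 112 ± 22.7 CPM (SD, n = 3), and the log2 fold change was 2.31 (SE 0.26, adjusted p = 0.00607), or 4.96-fold. The call was lost only without saline WT2 (adjusted p = 0.0558), and the estimate stayed between 2.18 and 2.72 in all alternatives.

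**Figure D3:**
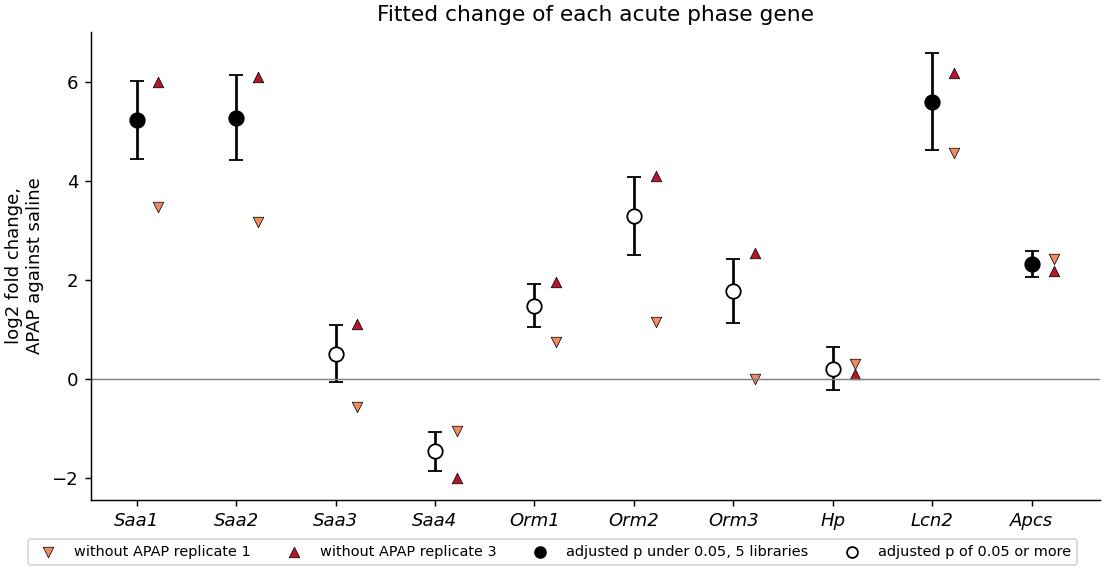
Fitted log2 fold change of APAP against saline for each gene (circles, bars 1 SE), filled where the adjusted p is under 0.05, with the estimate without each APAP library (triangles). Apcs and Hp move little between the triangles, while Saa1, Saa2, Orm2 and Orm3 move from 3.48, 3.18, 1.15 and -0.0021 to 5.99, 6.09, 4.10 and 2.54.

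The APAP libraries did not differ alike for all members. The ratio of replicate 1 to replicate 3 in CPM was 7.84 for Orm2, 7.63 for Saa2, 5.87 for Orm3, 5.79 for Saa1, 3.26 for Saa3, 3.09 for Lcn2 and 2.34 for Orm1. Across tested genes the median ratio was 0.986 and the 95th percentile 2.33, so these 7 genes lay at or above the upper end of the distribution. Hp (0.870), Apcs (0.845) and Saa4 (0.524) lay on the other side of 1 and above the 5th percentile of 0.463. With 2 libraries this is a description with no test.

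**Figure D4:**
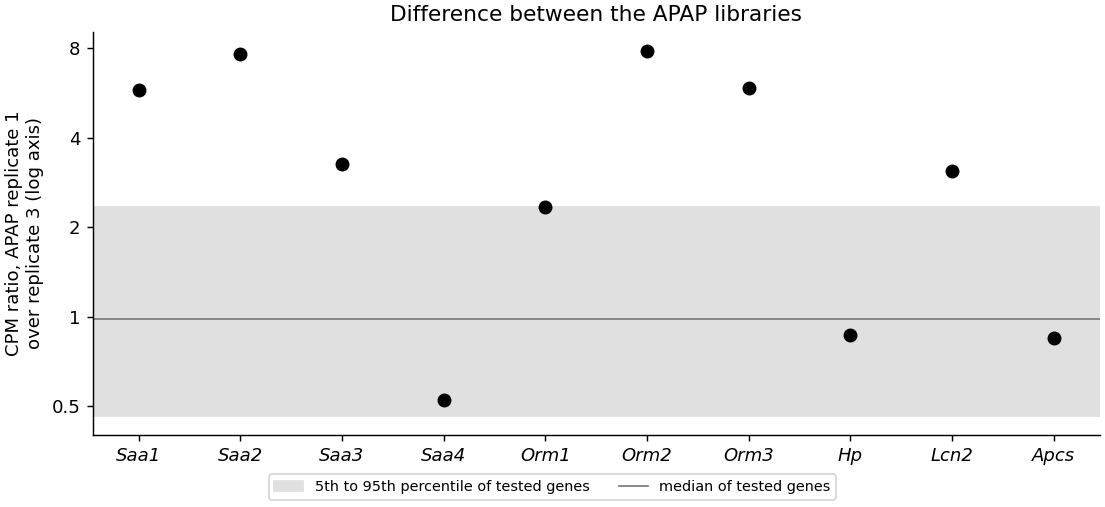
Ratio of CPM in APAP replicate 1 to APAP replicate 3 for each gene on a log axis, with the band from the 5th to the 95th percentile (0.463 to 2.33) and the median of tested genes. Saa1, Saa2, Saa3, Orm2, Orm3 and Lcn2 lie clearly above the band, Orm1 at its upper edge, and Saa4, Hp and Apcs within it.

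In the saline libraries the order of levels per kb was Hp (3334 ± 1324 CPM per kb, SD, n = 3), Orm1 (920 ± 269.9), Saa4 (160.3 ± 45.1), Apcs (115 ± 23.4), Orm2 (61.2 ± 23.0), Saa1 (58.0 ± 29.5), Saa2 (31.6 ± 15.2), Lcn2 (30.4 ± 32.5), Saa3 (11.3 ± 5.63) and Orm3 (7.24 ± 1.36). Hp stood clear of Orm1, Orm1 of Saa4, and Apcs of Orm2, and all other neighbours in this order overlapped between libraries. With APAP the order was Hp (3844 ± 377 CPM per kb, SD, n = 2), Orm1 (2556 ± 1451), Saa1 (2184 ± 2178), Lcn2 (1479 ± 1070), Saa2 (1229 ± 1335), Orm2 (597 ± 653), Apcs (573 ± 67.9), Saa4 (58.3 ± 25.7), Orm3 (24.7 ± 24.8) and Saa3 (16.1 ± 12.1). Here only Apcs and Saa4 were neighbours without overlap. The 10 genes together took 1.87% and 0.961% of all counts in APAP replicates 1 and 3, against 0.469%, 0.365% and 0.716% in saline WT1, WT2 and WT3.

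The genes with the most similar pattern over the 5 libraries, by the root mean square distance between centred log2 CPM values, were then listed for 3 members among 8432 genes whose mean reached 10 CPM in either group. For Saa1 they were Saa2 (0.15), Cidec, a lipid droplet protein (0.35), and Smpd3, a sphingomyelinase (0.45). For Lcn2 they were Cidec (0.44), Atf3, a stress-responsive transcription factor (0.62), and Saa1 (0.77). For Orm2 they were Muc1, a transmembrane mucin (0.26), Eif4ebp3, an inhibitor of cap-dependent translation (0.27), and Tmprss2, a transmembrane serine protease (0.47). Cidec, for instance, measured 100.8 and 26.0 CPM after APAP against 0.448, 0.332 and 2.14 CPM after saline. These genes were picked for their likeness over the same 5 libraries, so that likeness is no separate result.

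Among cytokines that drive the response, 1 of the 4 tested of 10 listed rose and none fell. Beside this and the receptor counts below stands the share over all tested genes, 3.70% called higher and 3.53% lower. Clcf1, an interleukin-6 family ligand, measured 36.8 and 11.2 CPM in APAP replicates 1 and 3, against 0.179, 1.06 and 1.47 CPM after saline (log2 fold change 4.67, adjusted p = 0.0177). As with Saa1 and Lcn2, replicate 1 was the higher APAP library. The lowest saline value of Clcf1, in WT1, rests on 2 counts. Il6 was at or below 0.334 CPM and Tnf at or below 0.618 CPM in all 5 libraries, too low to test, and Il1b did not pass (0.78, adjusted p = 0.454). Of the 10 cytokine receptor and antagonist genes, 2 rose and none fell: Osmr, the oncostatin M receptor (1.87, adjusted p = 0.0286), and Il1rn, the interleukin-1 receptor antagonist (1.96, adjusted p = 0.0412). The interleukin-6 receptor genes Il6ra (-0.32, adjusted p = 0.755) and Il6st (0.30, adjusted p = 0.518) did not pass. Of both lists together, 0 genes were called without APAP replicate 1 or without saline WT2, and the receptors alone gave 0 calls without APAP replicate 3 and 1 without saline WT1.

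Over all tested genes 7.23% were called in either direction, 3.70% higher and 3.53% lower. Of the 14 signal transducers and transcription factors, none rose and 1 fell. Cebpa, the C/EBP factor of the differentiated hepatocyte, measured 109 and 86.1 CPM after APAP against 287, 254 and 205 CPM after saline (log2 fold change -1.35, adjusted p = 0.0330). Cebpb (0.66, adjusted p = 0.372) and Cebpd (1.37, adjusted p = 0.138), the C/EBP factors known to rise in inflammation, and Stat3 (0.05, adjusted p = 0.951) did not pass. Of the 8 feedback genes tested of 9, 2 rose and none fell. Socs3, the inhibitor induced by STAT3, measured 38.0 and 33.7 CPM after APAP against 7.35, 4.78 and 14.1 CPM (2.03, adjusted p = 0.0374), without the gap between APAP libraries seen for Saa1. Bcl3, a nuclear regulator of NF-kB, rose too (1.02, adjusted p = 0.0341), and Nfkbia did not pass (-0.31, adjusted p = 0.359). Feedback genes called higher numbered 0 without either APAP library or saline WT2 and 1 without WT1 or WT3, and no factor was called lower when any library other than WT3 was left out.

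The counts of this paragraph stand beside 3.70% of all tested genes called higher, 3.53% lower and 7.23% in either direction. Of 20 other positive acute phase genes tested of 21, 4 rose and none fell, with a median log2 fold change of 0.71. They were the protease inhibitors Serpina3n (2.57, adjusted p = 0.0180) and Serpina3m (1.63, adjusted p = 0.0362), Lrg1, a secreted glycoprotein (2.21, adjusted p = 0.0391), and Cd14, the co-receptor for lipopolysaccharide (4.11, adjusted p = 0.0292). Crp, named here after its values were seen, is a pentraxin like Apcs and measured 196 and 309 CPM after APAP against 812, 635 and 544 CPM after saline, below all saline libraries but not past the test (-1.39, adjusted p = 0.0522). Of the 10 negative acute phase genes, none rose and 2 fell, with a median of -0.69. They were Serpina6, which encodes the corticosteroid carrier of plasma (-5.69, adjusted p = 0.00234), and Apoa2, an apolipoprotein of high-density lipoprotein (-1.85, adjusted p = 0.0404), whereas Alb did not pass (-0.70, adjusted p = 0.512). Of 12 tested binding partners and receptors of the 10 proteins, listed as 13, 1 rose, Hmox1, the enzyme that degrades haem (1.89, adjusted p = 0.0358), and none fell. Of the 10 hepatocyte markers, 1 fell (Ass1, a urea cycle enzyme, -1.72, adjusted p = 0.0201), and their median log2 fold change was -0.80. Alb, Ttr and Apoa1 are on this list and on the negative acute phase list, so the medians of these lists are not separate observations. Other positive acute phase genes called numbered 0 without APAP replicate 1, saline WT1 or saline WT2 and 3 without APAP replicate 3. Negative ones numbered 1 whichever library was left out, the called binding partner was lost without any library other than WT3, and the called hepatocyte marker was lost without either APAP library or saline WT2.

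**Figure D5:**
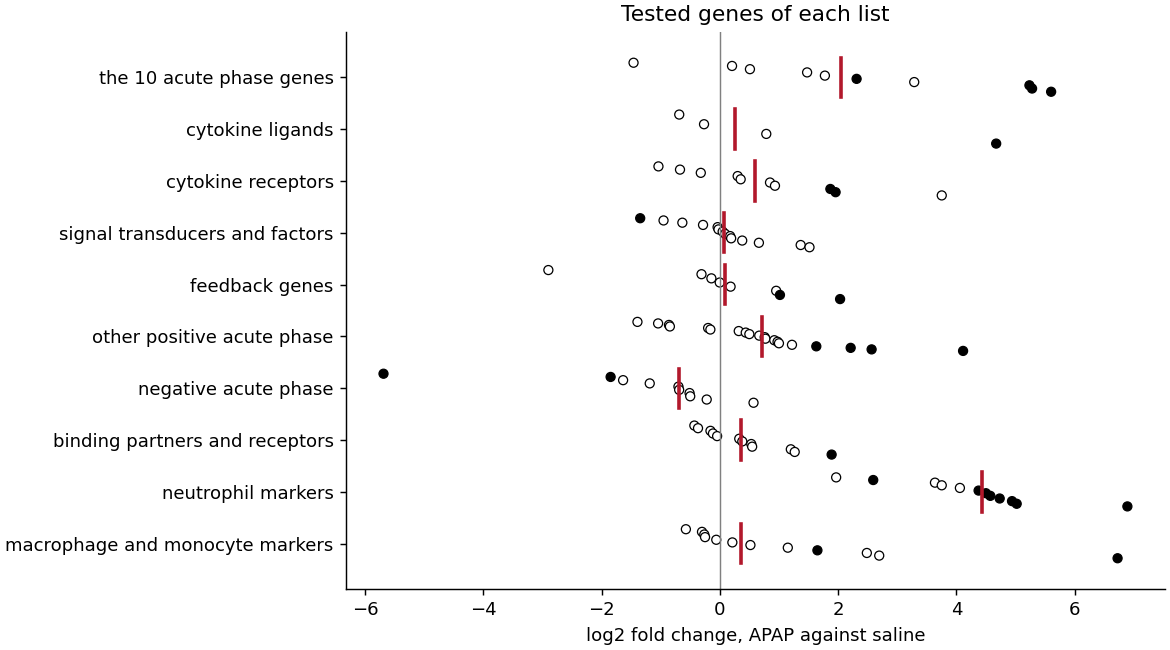
Log2 fold change of each tested gene in 10 lists (circles, filled where the adjusted p is under 0.05), with the list's median as a vertical bar. The medians are 2.04 for the 10 acute phase genes, 0.71 for other positive acute phase genes, -0.69 for negative ones and 0.07 for signal transducers. Most neutrophil markers passed the count filter with under 10 counts in a saline library, so their median is not read.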

How the data were processed

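RNA was measured by bulk RNA-seq of mouse liver. The authors deposited 1 table of raw read counts per gene, aligned with HISAT2 per the study's methods, on GRCm38 per the submitters' processing notes. The annotation release and strand setting were not given in the sources used here. The table's 5 per-sample FPKM columns were not used. Library totals were 13378445 to 15976339 counts. Replicates within a group differed by more than sampling noise (chi-square of counts per degree of freedom 43.2 to 92.2), so none was merged.

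Genes were kept by edgeR's filterByExpr (at least 10 counts at the median depth and 15 in total), which left 13734 of 34745, and 14810 genes had no count. Counts were scaled by TMM and tested between groups with edgeR 4.0.16 (R 4.3.3, quasi-likelihood test, 2-sided, Benjamini-Hochberg adjustment over all tested genes), without covariates. The steps were tested on simulated data. Transcript lengths are those of each gene's first numbered protein-coding transcript. Promoter windows came from RefSeq (8 of 10 members matched). Alternatives were the likelihood ratio and exact tests, DESeq2 1.42.0, other scalings and filters, the study's threshold, and leaving out each library.

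Members and lists were chosen with earlier results of these data known. All members were named. From each list, called genes were named, at most the 4 of highest mean CPM, with a few fixed ones, and Ly6g, Lep, Chil3, Ccr2 and Crp were named after their values were seen where this rule did not give them.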

Additional observations from a re-analysis of the deposited data

How the results depend on the processing

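No paired analysis was possible because the saline columns' names do not tie them to numbered samples. Of the 10 genes, 4 were called higher and 0 lower. The higher count was 6 with the likelihood ratio test, the exact test, DESeq2 or scaling by library size only, 5 without the filter or with at least 10 counts in every library, 4 with RLE or upper-quartile factors and 7 at the study's threshold. The lower count was 1 with the likelihood ratio and exact tests, DESeq2, no filter and the study's threshold. Leaving out 1 library gave 0 (without saline WT2) to 6 (without APAP replicate 3) called higher and 0 to 0 lower, where all tested genes gave 165 to 922 calls against 993. Without saline WT1 1 was called higher and without APAP replicate 1 it was 3. The causes were not tested. Signs turned without APAP replicate 1 for Saa3 (log2 fold change -0.58, up to 1.11 without replicate 3) and Orm3 (-0.0021, up to 2.54), and without saline WT2 for Hp (-0.062, up to 0.52 without WT3). All-gene calls numbered 1835 with the likelihood ratio test, 1776 with the exact test and 2093 with DESeq2. Scaling by library size only moved the median log2 fold change of all genes from 0.03 to 0.42 and the calls from 508 higher of 993 to 1042 higher of 1339.

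Over all tested genes, 3.70% were called higher and 3.53% lower in the main fit, against 12.3% and 11.2% at the study's threshold. All-gene calls went from 993 to 1835, 1776 and 2093 with the likelihood ratio test, the exact test and DESeq2. They were 1339 with library size only and 165 to 922 with 1 saline library left out. For other genes of the response, counts called higher against lower moved as follows, as a description not tested against these shares. Cytokine ligands called higher went from 1 to 0 with at least 10 counts in every library. That filter removed Clcf1, with 2 counts in saline WT1, before the test. Over the left-out saline libraries the ligands called higher numbered 0 to 1. Cytokine receptors went from 2 to 4 with the likelihood ratio and exact tests, DESeq2, library size only and the study's threshold (which also called 2 lower), and 3 with the other filters, ranging from 0 to 3 over left-out libraries. Feedback genes went from 2 to 3 higher with library size only or the study's threshold and from 0 to 1 lower with the likelihood ratio and exact tests, DESeq2, RLE factors, both filters and the study's threshold, with 0 to 1 higher and 0 to 1 lower over left-out libraries. Other positive acute phase genes went from 4 to 8 higher with library size only, 5 with the other tests and 6 at the study's threshold, from 0 to 3 lower with DESeq2 and the study's threshold, 2 with the other tests and 1 with library size only or the other filters, and 0 to 5 higher over left-out libraries. Negative ones went from 2 to 4 lower with DESeq2 or the study's threshold, 3 with the other tests or library size only and 1 whichever library was left out. Signal transducers went from 0 to 1 higher with DESeq2 and 2 at the study's threshold, and from 1 to 2, 3 and 0 lower with DESeq2, the study's threshold and library size only, with 0 to 1 of each over left-out libraries. Binding partners went from 1 to 3 higher at the study's threshold and 0 to 1 over left-out libraries.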
